A study of Mus musculus with 2 samples.

Results

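Endothelial cells were examined in mouse parathyroid glands grown from embryonic stem cells. The hosts lacked Gcm2 (Gcm2-/-, BDF1B6 background), the gene needed to form parathyroid glands, and were complemented with Pth-tdTomato mouse embryonic stem cells. Replicate 1 pooled 3 mice (9 to 12 weeks, 50 to 70% blood chimerism) and replicate 2 pooled 5 mice (6 to 13 weeks, 60 to 70%), males and females together, and each pool gave 1 droplet library of 3′ RNA tags. All cells compared here come from such complemented glands, and a cell of a chimeric animal can stem from the host or from the stem cells.

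A barcode was taken as endothelial when at least 3 of 6 genes (Cdh5, Pecam1, Egfl7, Plvap, Emcn and Flt1) each had a UMI, a unique molecular identifier that counts 1 captured RNA. It also had to have at most 1 UMI of Ptprc, a leukocyte gene, less than 0.2% of its UMIs in the stromal genes Col1a1, Col1a2, Col3a1 and Dcn together, and less than 1% in Pth. Only barcodes with 500 genes or more, under 15% mitochondrial UMIs and under 5% haemoglobin UMIs entered. This gave 389 endothelial cells of 4924 barcodes, 109 of 1406 in replicate 1 and 280 of 3518 in replicate 2. They made up 19.1% of all barcodes under the Pth limit in replicate 1 (95% exact binomial interval 15.9 to 22.6%) and 26.6% in replicate 2 (23.9 to 29.3%), or 22.8% ± 5.29 (SD, n = 2). These intervals and all others below cover counting error only.

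The cells set against them were the remaining 1236 barcodes under the Pth limit, 462 in replicate 1 and 774 in replicate 2, called other Pth-low cells here. Of these, 230 and 452 were collagen-rich, 207 and 278 were Ptprc-positive, and 25 and 44 were neither. Barcodes above the Pth limit, 688 and 2265, are called Pth-high and hold the parathyroid cells.

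Endothelial cells line all blood and lymph vessels. In endocrine glands the capillary lining is usually fenestrated, with pores closed by diaphragms built from Plvap, and hormone passes through it into the blood. Vascular endothelial growth factor (VEGF) from neighbouring cells acts on the receptors Kdr and Flt1, angiopoietins act on Tek, and Notch signalling through Dll4 takes part in sprouting and in arterial identity.

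The 6 genes of the rule occurred together in nearly all cells chosen by it. All 6 had a UMI in 104 of 109 cells of replicate 1 and 255 of 280 of replicate 2. Just inside the limit were 0 and 3 cells with 3 genes, and just outside it 32 and 9 Pth-low barcodes with 2 genes. Plvap (chromosome 8, 71497765 to 71511752, minus strand, GRCm38) had 2425 and 2686 CPM (UMIs per 1000000 UMIs summed over the cells of a class) in endothelial cells of replicates 1 and 2, against 22.8 and 26.9 CPM in other Pth-low cells. Cdh5, the endothelial cadherin, had 690.5 and 593 CPM in endothelial cells, against 6.71 and 4.75 CPM. These values chose the cells and are given without a test.

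Markers of macrophages and fibroblasts were far lower in endothelial cells than in other Pth-low cells, and those of some other cell types were not. The 6 macrophage markers summed to 17.2 and 10.3 CPM in endothelial cells, against 2162 and 2823 CPM in other Pth-low cells, and Adgre1 was at 0 in endothelial cells of both libraries. The 7 fibroblast markers summed to 27.4 and 79.9 CPM in endothelial cells, against 14624 and 18594 CPM. The rule itself holds both lists down, because it limits Ptprc and stromal genes. The 8 pericyte markers, which the rule does not use, summed to 142 and 569 CPM in endothelial cells, against 317 and 380 CPM, so they were higher in endothelial cells of replicate 2. The 4 erythroid markers summed to 16.3 and 88.4 CPM in endothelial cells, against 8.98 and 8.14 CPM. The 5 parathyroid markers, Pth among them, summed to 2793 and 2880 CPM, against 2416 and 2170 CPM. Pth took 0.179% and 0.197% of endothelial UMIs, against 0.138% and 0.147% in other Pth-low cells and 14.1% and 15.8% in Pth-high cells.

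Endothelial barcodes held fewer UMIs than their neighbours. The median was 10203 and 7589 UMIs in endothelial cells, against 17662.5 and 17539.5 in other Pth-low cells, and the endothelial sums were 1165847 and 2227432 UMIs. The libraries shared 3 cell barcodes, of which 1 was endothelial in 1 library and 0 in both. The doublet caller Scrublet predicted 19 barcodes (1.51%) in replicate 1 and 23 (0.693%) in replicate 2, 0 of them endothelial.

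Endothelial cells were compared with other Pth-low cells by edgeR's quasi-likelihood test on UMIs summed per library, with library as a block and Benjamini-Hochberg adjustment over all genes. Of 13905 genes tested, 2817 (20.3%) were called higher in endothelial cells at an adjusted p of 0.05 and 3868 (27.8%) lower, 48.1% in all. Higher by at least 1 on the log2 scale were 1791, and 2047 of the genes called higher had more CPM in endothelial cells than in each other class of both libraries. The median log2 fold change over all tested genes was -0.09. The rule selects cells by endothelial genes and against leukocyte and stromal genes, so genes expressed with these had to follow. The calls describe what the selected cells contain and are no independent support for the cell type. With 4 sums and 1 residual degree of freedom, the test borrows spread from other genes. A call therefore does not show that a gene's difference was steady over the 2 pools of mice. Selp, for example, was called with log2 ratios of 7.72 in replicate 1 and 2.34 in replicate 2. Other Pth-low cells are a mixture, so a gene called lower than in the mixture can be higher than in one of its classes.

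The 12 largest positive differences outside the rule's genes held genes known from vessels and a few others. Gpihbp1, which carries lipoprotein lipase to the capillary lumen (chromosome 15, 75596628 to 75599481, plus strand), had 603 and 947 CPM in endothelial cells, against 2.75 and 4.07 CPM in other Pth-low cells (log2 fold change 7.71 ± 0.19 SE, edgeR adjusted p = 1.09e-07). Sox18, a transcription factor of vessel development, had 276 and 175 CPM in endothelial cells, against 0.359 and 0.980 CPM (8.04 ± 0.32 SE). Both genes were picked for a large difference in the same direction in both libraries, so the lack of overlap between the groups follows from the choice. Ccl21a, a chemokine of lymphatic vessels, had a log2 fold change of 10.43, but its UMIs came from 3 and 6 cells. Olfr1396, an olfactory receptor gene, had 30 and 89 UMIs in 21 and 65 endothelial cells and 0 UMIs in all other Pth-low cells, at least 237-fold higher against a floor of 3 counts over the group. Msmp had 57.5 and 86.2 CPM in endothelial cells, against 0.599 and 0.226 CPM, and AU021092 had 30.9 and 37.7 CPM, against 0 and 0.0754 CPM. Car4, Cldn5, Depp1, Ecscr, Mmrn1 and Reln made up the rest of the 12 largest.

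The largest negative differences were of genes with 0 endothelial UMIs. Fgf10, Mfap5, Lgr5 and Ms4a4d had their highest levels in collagen-rich cells, and Dock2, Rgs1 and Ly86 in Ptprc-positive cells. They were at least 147-fold (Ms4a4d) to at least 288-fold (Fgf10) lower in endothelial cells, with 3 counts over the group in place of 0. The rule leaves collagen-rich and Ptprc-positive cells out of the endothelial class, so these genes describe the cells left out.

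Pan-endothelial genes outside the rule were called higher in 26 of 26 cases, against 20.3% of all tested genes. Their median log2 fold change was 6.34. Tie1, an orphan receptor of the angiopoietin system, averaged 289 ± 3.07 CPM in endothelial cells and 1.51 ± 0.103 CPM in other Pth-low cells (SD, n = 2 each). Ecscr, an endothelial surface protein, had 179 and 207 CPM in endothelial cells, against 0.719 and 0.905 CPM. Calcrl and Ramp2, partners in an adrenomedullin receptor, differed less, with log2 fold changes of 1.10 and 2.01. Collagen-rich cells also had 249.9 and 237 CPM of Calcrl and 159.6 and 217 CPM of Ramp2.

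Promoters of these genes were read from RefSeq (GRCm38.p6), where 15 of the 26 pan-endothelial genes and 3 of the rule's 6 genes had an entry. The 250 bases before each start were searched on both strands for 6 words known from factors of endothelium. The short ETS core AGGAAG was in 9 of 15 pan-endothelial promoters (60%), against 29.2% of 27025 promoters in the table, and in 3 of 3 promoters of the rule's genes. The longer ETS word ACCGGAAG, which does not contain AGGAAG, was in 0 of the 15, against 1.70% of all. For GATA factors the word AGATAA was in 6.67% of the 15 promoters, against 10.3% of all. For SOX factors AACAAT was in 20%, against 9.65%, for FOX factors TGTTTA was in 6.67%, against 12.0%, and for KLF factors CCACACCC was in 13.3%, against 3.19%. A match is a string of letters and not a shown site, and 15 promoters are few. The promoters of Egfl7, Flt1 and Emcn are shown as those of the rule's genes, that of Tie1 as a pan-endothelial gene with the short ETS core, and that of Kdr as one without it. Capitals mark AGGAAG and its reverse complement, and each promoter is written 5′ to 3′ on the strand of its gene and ends at the base before the start.
Egfl7, chr2:26580833-26581082, plus strand: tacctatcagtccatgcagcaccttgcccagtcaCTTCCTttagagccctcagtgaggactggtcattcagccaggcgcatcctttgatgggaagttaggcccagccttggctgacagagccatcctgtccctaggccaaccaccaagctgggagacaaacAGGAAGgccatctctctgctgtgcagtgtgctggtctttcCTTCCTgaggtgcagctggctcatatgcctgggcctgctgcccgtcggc
Flt1, chr5:147726012-147726261, minus strand: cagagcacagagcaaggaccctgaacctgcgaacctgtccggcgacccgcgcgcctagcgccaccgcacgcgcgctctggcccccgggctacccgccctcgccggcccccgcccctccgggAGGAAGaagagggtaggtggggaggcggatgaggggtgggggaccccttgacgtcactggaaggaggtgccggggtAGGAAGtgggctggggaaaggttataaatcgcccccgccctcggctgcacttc
Emcn, chr3:137340828-137341077, plus strand: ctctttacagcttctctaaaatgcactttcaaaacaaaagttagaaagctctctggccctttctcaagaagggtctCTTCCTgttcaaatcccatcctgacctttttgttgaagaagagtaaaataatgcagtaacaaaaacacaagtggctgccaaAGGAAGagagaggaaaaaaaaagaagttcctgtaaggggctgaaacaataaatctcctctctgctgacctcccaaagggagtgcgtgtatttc
Tie1, chr4:118489850-118490099, minus strand: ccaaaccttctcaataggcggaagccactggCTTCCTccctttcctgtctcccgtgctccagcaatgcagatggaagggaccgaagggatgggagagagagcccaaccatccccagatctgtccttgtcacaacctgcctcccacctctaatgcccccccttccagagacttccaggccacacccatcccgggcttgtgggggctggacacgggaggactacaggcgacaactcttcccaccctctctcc
Kdr, chr5:75978456-75978705, minus strand: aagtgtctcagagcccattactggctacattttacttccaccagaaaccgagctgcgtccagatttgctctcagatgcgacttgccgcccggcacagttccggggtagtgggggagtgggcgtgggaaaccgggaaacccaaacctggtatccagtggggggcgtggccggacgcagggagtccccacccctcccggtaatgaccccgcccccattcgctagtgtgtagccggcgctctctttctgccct

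Transcription factors known from endothelium were called higher in 21 of 25 cases, against 20.3% of all tested genes. Their median log2 fold change was 2.56. The ETS factor Erg had 332 and 252 CPM in endothelial cells, against 3.23 and 1.89 CPM in other Pth-low cells (6.76 ± 0.19 SE, edgeR adjusted p = 1.09e-07). Fli1, another ETS factor, had 571 and 452 CPM in endothelial cells, against 265 and 205 CPM in Ptprc-positive cells and 5.85 and 4.39 CPM in collagen-rich cells. All SOX F factors were called higher. Sox7 had 160.4 and 119 CPM in endothelial cells, against 1.08 and 1.36 CPM, and Sox17, which is also on the arterial list, had 100.4 and 70.9 CPM, against 1.20 and 0.302 CPM. Gata2, Tal1 and Lmo2, factors shared with blood stem cells, were higher too, with 84.1 and 74.1 CPM of Gata2 in endothelial cells, against 2.64 and 0.830 CPM.

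The 2 Meox homeobox factors differed from each other. Meox1 had 127 and 174 CPM in endothelial cells, against 2.04 and 1.21 CPM (6.50 ± 0.26 SE). Meox2, known from endothelium of heart and muscle, had 0 and 5.39 CPM in endothelial cells, against 4.79 and 7.31 CPM, and was not called, and neither was Foxc2. Nr2f2, the venous factor, was called lower, with 144 and 181 CPM in endothelial cells, against 315 and 321 CPM in collagen-rich cells and 2.24 and 3.56 CPM in Ptprc-positive cells. Its call was lost without the library block (edgeR adjusted p = 0.12), and its sign turned against Ptprc-positive cells. Lyl1 was also lower, with 1.72 and 0.449 CPM in endothelial cells, against 14.4 and 26.2 CPM in Ptprc-positive cells, but not called with DESeq2 (adjusted p = 0.15).

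Receptors and ligands of the VEGF and angiopoietin systems fell into different classes of cells. Of 13 genes on the list, 8 were called higher, against 20.3% of all tested genes, and 5 lower, against 27.8%. All 6 receptors and coreceptors outside the rule were among the 8. Kdr, the main VEGF receptor (chromosome 5, 75932827 to 75978458, minus strand), had 1488 and 1816 CPM in endothelial cells, against 37.4 and 51.7 CPM in other Pth-low cells (5.12 ± 0.17 SE, edgeR adjusted p = 1.28e-07). The coreceptor Nrp1 had 1809 and 2298 CPM in endothelial cells, against 115 and 169 CPM, and the angiopoietin receptor Tek had 177 and 222 CPM, against 4.67 and 4.98 CPM. Flt4, the receptor of Vegfc, had 120.1 and 134 CPM, against 1.44 and 0.754 CPM. For these 4 genes both endothelial values lay above all values of the other classes. That was common, since 2047 of the 2817 genes called higher exceeded each other class in both libraries.

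Vegfa, Vegfb, Vegfc, Pgf and Angpt1 were the 5 ligands called lower. Vegfb and Vegfc were not called with DESeq2 (adjusted p = 0.38 and 0.112). Vegfa had 28.3 and 12.1 CPM in endothelial cells, against 271 and 262 CPM in collagen-rich cells, 16.9 and 4.57 CPM in Ptprc-positive cells and 95.3 and 81.9 CPM in Pth-high cells. Angpt1, the activating ligand of Tek, had 2.57 and 9.43 CPM in endothelial cells, against 86.1 and 82.8 CPM in collagen-rich cells and 4.19 and 2.40 CPM in Pth-high cells. Vegfa, Vegfc and Angpt1 thus had their highest levels in collagen-rich cells and Vegfb in Pth-high cells, with 60.0 and 57.2 CPM there and 15.4 and 18 CPM in endothelial cells. Against Ptprc-positive cells alone, Vegfa, Vegfb and Vegfc turned to positive log2 fold changes of 0.76, 0.036 and 4.26, of which that of Vegfc was called. Angpt2, the ligand that remodelling endothelium makes, was called higher, with 12.0 and 17.5 CPM in endothelial cells, against 4.31 and 1.28 CPM, but not with DESeq2 (adjusted p = 0.0754). Pdgfb, which recruits pericytes, had 287 and 318 CPM in endothelial cells, against 17.5 and 16.9 CPM.

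**Figure D1:**
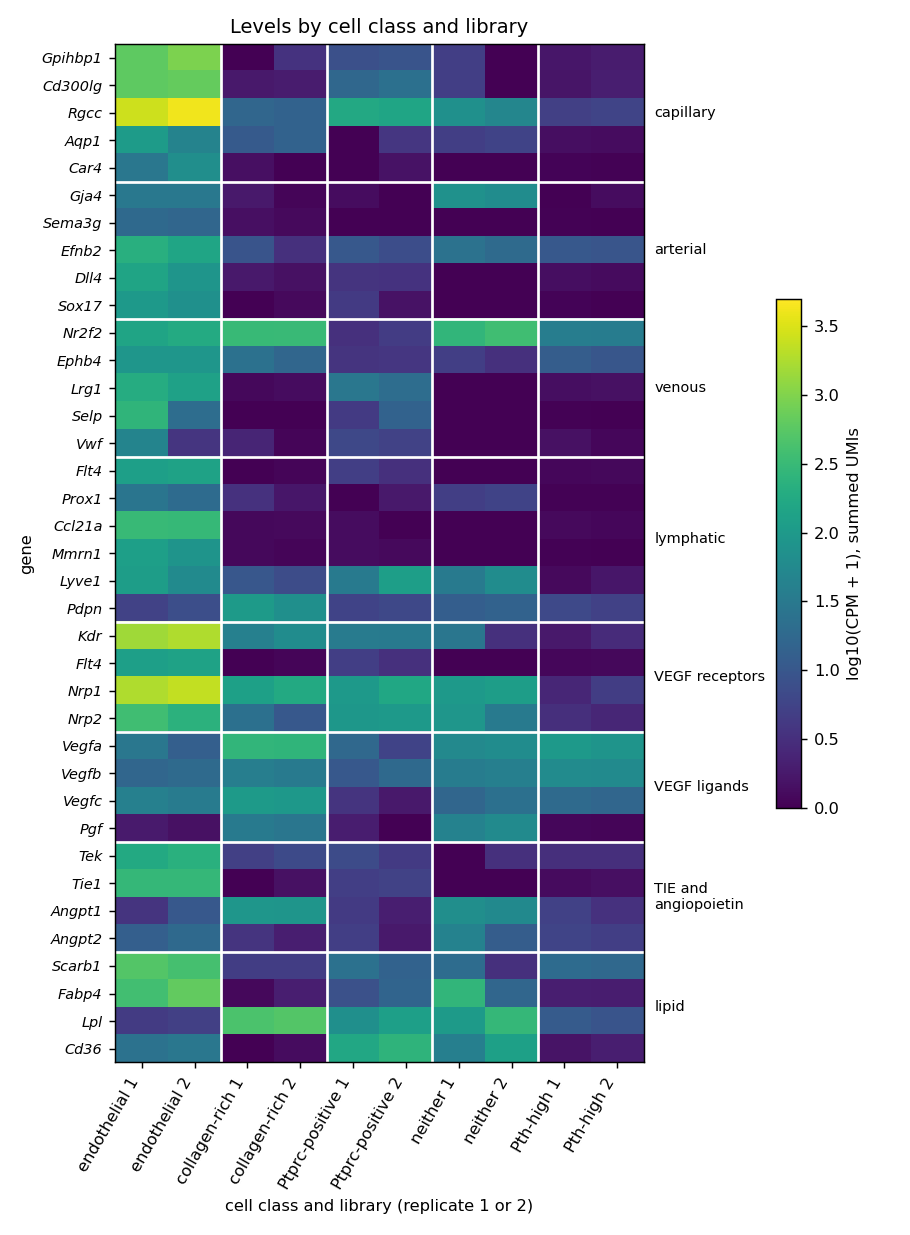
Levels of selected genes as log10(CPM + 1) of summed UMIs, with genes as rows and each cell class and library as a column, endothelial cells at the left. The columns named neither hold Pth-low cells that were not endothelial, collagen-rich or Ptprc-positive. Kdr had 1488 and 1816 CPM in endothelial cells, while Vegfa had its highest levels, 271 and 262 CPM, in collagen-rich cells.

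Notch and BMP genes were mostly higher in endothelial cells. Of 15 Notch genes, 10 were called higher, against 20.3% of all tested genes, and 1 lower, against 27.8%. The other 4 were not called, and the median log2 fold change was 1.78. The ligand Dll4 had 145 and 85.3 CPM in endothelial cells, against 1.44 and 1.06 CPM in other Pth-low cells (6.37 ± 0.23 SE, edgeR adjusted p = 1.61e-07). Among the receptors, Notch1 had 189.6 and 197 CPM in endothelial cells, against 26.4 and 17.1 CPM, and Notch4 had 78.1 and 75.4 CPM, against 0.958 and 1.36 CPM. Notch2 was the receptor called lower, with 0.858 and 3.59 CPM in endothelial cells, against 89.4 and 57.8 CPM. The ligand Jag2 was higher (84.9 and 67.8 CPM in endothelial cells, against 0.599 and 1.51 CPM), and Jag1 was not called (14.6 and 16.6 CPM, against 15.9 and 9.05 CPM).

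Of 15 BMP and TGF-beta genes, 10 were higher, against 20.3% of all tested genes, and 5 lower, against 27.8%. Their median was 1.62. Id1, a target of BMP signalling, had 499 and 487 CPM in endothelial cells, against 22.3 and 15.1 CPM (4.65 ± 0.18 SE, edgeR adjusted p = 2.06e-07). The receptors Eng and Acvrl1 were higher, with 529 and 534 CPM of Eng in endothelial cells, against 64.6 and 59.5 CPM. The ligand Bmp6 was higher, with 12.9 and 15.3 CPM in endothelial cells, against 1.20 and 0.679 CPM. Bmp4 was lower, with 7.72 and 8.08 CPM in endothelial cells, against 293 and 346 CPM in collagen-rich cells; against Ptprc-positive cells alone (3.19 and 3.05 CPM) its log2 fold change had the other sign, 1.07, and was not called.

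Of 6 capillary genes, 5 were called higher, against 20.3% of all tested genes, with a median of 6.01. Rgcc, Cd300lg and Gpihbp1 were found in most endothelial cells. Rgcc, a cell cycle regulator enriched in capillaries, had 2661 and 4119.5 CPM in endothelial cells, against 74.5 and 54.1 CPM in other Pth-low cells, and a UMI in 96.3% and 97.1% of endothelial cells. Cd300lg had 597 and 671 CPM in endothelial cells, against 6.71 and 7.16 CPM, and a UMI in 93.6% and 93.2% of endothelial cells. Gpihbp1 had a UMI in 81.7% and 85.4% of endothelial cells, against 0.866% and 1.55% of other Pth-low cells. Cd36, a fatty acid receptor of muscle and fat capillaries, was called lower, with 24.0 and 27.8 CPM in endothelial cells, against 167 and 251 CPM in Ptprc-positive cells and 0 and 0.338 CPM in collagen-rich cells, and its sign turned against collagen-rich cells. The other capillary genes were found in fewer endothelial cells, Car4 in 14.7% and 20.4%, Cd36 in 12.8% and 8.21% and Aqp1 in 7.34% and 3.93%.

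Genes of caveolae, junctions and permeability were called higher in 14 of 15 tested cases, against 20.3% of all tested genes. Their median was 3.78. Cav1, the coat protein of caveolae, had 324 and 365 CPM in endothelial cells, against 14.1 and 18.7 CPM, and the junction protein Esam had 588 and 672 CPM, against 6.59 and 8.97 CPM. Pacsin2 was not called, with 29.2 and 34.6 CPM in endothelial cells, against 39.8 and 38.3 CPM. Ocln, a tight junction gene, was too low to test, with 0 and 1 UMIs in endothelial cells. Cldn5, the main claudin of tight endothelium (chromosome 16, 18776847 to 18778262, plus strand), was called higher but had 40 and 128 UMIs in 4 and 12 endothelial cells only. Of these UMIs, 28 and 76 lay in a small lymphatic-like group described further on. Without the cells with at least 3 lymphatic markers, Cldn5 had 10.6 and 23.8 CPM in endothelial cells.

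Genes of the blood-brain barrier went both ways. Of 8 tested genes, 2 were called higher and 2 lower, shares close to those over all genes, with a median of 0.09. Mfsd2a, Slc38a5, Foxq1 and Foxf2 were too low to test, with at most 1 endothelial UMI each. The exporter Abcg2 was higher, with 365 and 425 CPM in endothelial cells, against 27.9 and 24.5 CPM (3.82 ± 0.16 SE, edgeR adjusted p = 3.17e-07), and so was the monocarboxylate carrier Slc16a1, with 88.3 and 106 CPM, against 7.91 and 8.14 CPM. Abcb1a, another exporter, was lower, with 78.9 and 55.7 CPM in endothelial cells, against 100.01 and 91.9 CPM, a call that was lost without the library block (edgeR adjusted p = 0.0678). Slco1c1, a carrier of thyroid hormone, had 0 and 0 UMIs in endothelial cells, against 2.40 and 2.56 CPM in other Pth-low cells. The glucose carrier Slc2a1 was not called, with 40.3 and 22.9 CPM in endothelial cells, against 35.6 and 19.5 CPM.

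Lipid handling genes went both ways, with 5 of 14 higher, 4 lower and a median of -0.14. Shares over all tested genes were 20.3% higher and 27.8% lower. Lpl, the lipase that Gpihbp1 carries, was lower, with 3.43 and 4.04 CPM in endothelial cells, against 443 and 509 CPM in collagen-rich cells and 67.7 and 123 CPM in Ptprc-positive cells. The lipase and its carrier therefore stood in different classes of cells. Scarb1, a receptor for high-density lipoprotein, had 511 and 399 CPM in endothelial cells, against 11.4 and 6.56 CPM (5.61 ± 0.18 SE). Fabp4, a fatty acid carrier, had 385 and 639.8 CPM in endothelial cells, against 11.3 and 5.51 CPM.

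Basement membrane genes were mixed as well, with 4 of 13 higher, 5 lower and a median of 0.09. All tested genes were higher in 20.3% and lower in 27.8% of cases. Col4a1, a chain of the main collagen of basement membranes, was higher, with 1329.5 and 1768 CPM in endothelial cells, against 549.8 and 667 CPM. Nid1 was lower, with 133 and 148 CPM in endothelial cells, against 899 and 825 CPM in collagen-rich cells. The sign of Nid1 turned with the cells compared, since Ptprc-positive cells had 1.92 and 3.56 CPM.

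Genes of flow, nitric oxide and clotting were called higher in 11 of 15 cases, against 20.3% of all tested genes. Their median was 1.73. Klf2, a factor induced by flow, had 1227 and 1361 CPM in endothelial cells, against 148 and 279 CPM in other Pth-low cells. Nos3, the endothelial nitric oxide synthase, had 60.0 and 61.5 CPM in endothelial cells, against 0.719 and 0.830 CPM. Ednrb, an endothelin receptor, had 751 and 766 CPM, against 16.2 and 26.1 CPM (5.08 ± 0.21 SE, edgeR adjusted p = 3.00e-07). Tfpi and Plat, which act in clotting and its dissolution, were lower, with 33.5 and 36.4 CPM of Plat in endothelial cells, against 335 and 239 CPM in collagen-rich cells. Both were higher than in Ptprc-positive cells alone, and Tfpi lost its call without the library block (edgeR adjusted p = 0.0639). Vwf, the carrier of a clotting factor, was called higher but had 46.3 and 2.69 CPM in endothelial cells of replicates 1 and 2, from 5 and 3 cells. Of its 54 UMIs in replicate 1, 52 lay in sub-cluster 4 of the endothelial cells, and with DESeq2 it was not called (adjusted p = 0.0996).

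Receptors for hormones and vasoactive peptides were called higher in 8 of 17 tested cases and lower in 7. Over all tested genes, the shares were 20.3% and 27.8%. Insr, the insulin receptor, had 564 and 537 CPM in endothelial cells, against 75.2 and 62.2 CPM (2.91 ± 0.14 SE, edgeR adjusted p = 7.77e-07). Ramp3, which with Calcrl forms an adrenomedullin receptor, had 262 and 376 CPM in endothelial cells, against 36.4 and 27.1 CPM. Ramp1, which with Calcrl forms the receptor for calcitonin gene-related peptide, was lower, with 0.858 and 3.59 CPM in endothelial cells, against 174 and 189 CPM.

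Receptors of the gland's own calcium system were low or moderate in endothelial cells. Pth1r, the receptor for parathyroid hormone, was lower, with 1 and 5 UMIs or 0.858 and 2.24 CPM in endothelial cells, against 26.6 and 28.5 CPM in collagen-rich cells. Pth2r had 0 and 0 UMIs in endothelial cells. Casr, the calcium sensor, had 2.57 and 3.59 CPM in endothelial cells, against 351 and 314 CPM in Pth-high cells. Vdr, the vitamin D receptor, was called higher than in other Pth-low cells, with 32.6 and 44.4 CPM in endothelial cells, against 1.61 and 3.94 CPM in collagen-rich cells and 11.2 and 11.9 CPM in Ptprc-positive cells. It was highest in Pth-high cells, with 214 and 307 CPM, a class whose main transcript Pth had 1788 and 1966 CPM in endothelial cells, against 1176 and 1328 CPM in collagen-rich cells. The part of free RNA in the Vdr level was not tested.

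Genes of antigen presentation and the interferon response were called higher in 20 of 21 cases, against 20.3% of all tested genes. Their median was 1.38, and Gbp2 was not called. Ly6c1, a surface protein of mouse endothelium and some leukocytes, had 1934 and 2242 CPM in endothelial cells, against 13.3 and 18.7 CPM in other Pth-low cells (6.93 ± 0.20 SE, edgeR adjusted p = 1.09e-07). B2m, the light chain of class I molecules, had 2312 and 2559 CPM in endothelial cells, against 1989.6 and 2119.5 CPM in Ptprc-positive cells and 631 and 582 CPM in collagen-rich cells. Ifi44 had 169.8 and 219 CPM in endothelial cells, against 9.58 and 5.88 CPM, and Ifit1 had 426 and 334 CPM, against 43.8 and 52.2 CPM. Class I, Ifit and Ly6 genes have close paralogs between which reads may be divided, so values of single members are uncertain.

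**Figure D2:**
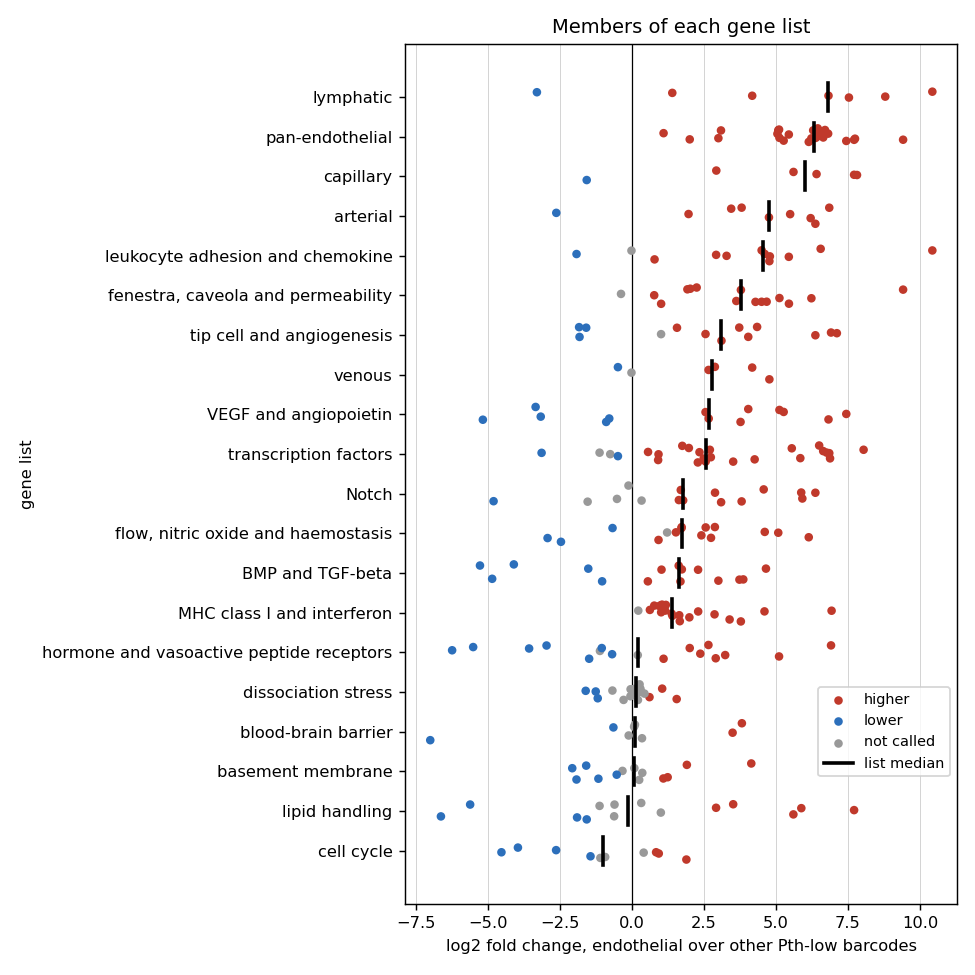
Log2 fold change of every tested member of 20 gene lists, endothelial over other Pth-low cells, 1 row per list with its median as a black bar, in red for genes called higher, blue for lower and grey for genes not called. All 26 pan-endothelial members lie above 0, while lipid handling (median -0.14), basement membrane (0.09) and blood-brain barrier (0.09) lie on both sides of it.

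Leukocyte adhesion and chemokine genes were higher in 10 of 12 tested cases, against 20.3% of all tested genes, with a median of 4.56. Podxl, a sialomucin of the vessel lumen, had 549 and 631 CPM in endothelial cells, against 7.19 and 4.83 CPM. Icam2, an adhesion molecule of resting endothelium, had 152 and 211 CPM, against 2.99 and 4.68 CPM. Icam1, an inducible one, was lower, with 82.3 and 47.6 CPM in endothelial cells, against 301 and 202 CPM in collagen-rich cells and 201 and 174 CPM in Ptprc-positive cells. Madcam1 and Glycam1, known from venules of lymphoid tissue, had 0 UMIs in endothelial cells.

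Lymphatic endothelium was a small group of cells in both libraries. Ccl21a (chromosome 4, 42772860 to 42773993, minus strand) had 357 and 676 UMIs in 3 and 6 endothelial cells, with up to 231 and 307 in 1 cell. It has near-identical copies in the genome, so its reads may be shared with them. Mmrn1, a matrix protein of lymphatic vessels, had UMIs in 3 and 5 cells, and all of these also had Ccl21a and Prox1, the factor that sets lymphatic identity. Lyve1, a lymphatic hyaluronan receptor, had UMIs in 5 and 4 endothelial cells. UMIs of at least 3 of 7 lymphatic markers were found in 3 endothelial cells of replicate 1 (2.75%, 95% exact interval 0.571 to 7.83%) and 5 of replicate 2 (1.79%, 0.582 to 4.12%).

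When endothelial cells were clustered alone, 8 cells, 3 and 5 from the libraries, formed sub-cluster 9, called lymphatic-like here from Ccl21a, Mmrn1, Reln and Lyve1 among its leading genes. Prox1 had 789.9 CPM in sub-cluster 9, against 4.22 CPM in the other endothelial cells, and Pdpn had 254 CPM, against 0.301 CPM. Cldn5 had 1392 CPM there, against 19.3 CPM. Of the 6 capillary genes, 5 had lower values in sub-cluster 9, such as Rgcc with 522 CPM, against 3688 CPM, and Gpihbp1 with 120.5 CPM, against 845 CPM. Aqp1 had a higher one, 241 CPM, against 61.5 CPM. Plvap, a gene of the rule, had 361 CPM there, against 2647 CPM.

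The 8 cells set most of the lymphatic list. Over all endothelial cells, 6 of its 7 genes were called higher (median 6.82), against 20.3% of all tested genes. Pdpn was lower, with 4.29 and 6.73 CPM in endothelial cells, against 104 and 68.0 CPM in collagen-rich cells. Without the 3 and 5 cells with at least 3 lymphatic markers, the median was -1.97 and Ccl21a had 0 and 1 UMIs left. The markers chose those cells, so this follows from the choice, and Lyve1 turned to a log2 fold change of -5.79. Flt4 kept a log2 fold change of 6.60, and it had a UMI in 61.5% and 59.3% of all endothelial cells.

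Venous genes were spread over a larger sub-cluster, and several were concentrated in very few cells. Of 6 tested venous genes, 4 were higher (median 2.77), against 20.3% of all tested genes. Nr2f2 was lower and Vcam1 was not called. Selp, an adhesion molecule of venules (chromosome 1, 164115264 to 164150026, plus strand), had 308 UMIs in 4 cells of replicate 1, 148 of them in 1 cell, and 45 UMIs in 1 cell of replicate 2. Without replicate 2 its log2 fold change was 7.72, and without replicate 1 it was 2.34. Sele had 67 and 1 UMIs in 4 and 1 cells, and Ackr1, a chemokine receptor of venules, had 22 and 0 UMIs. Neither gene passed the count filter, so neither was tested. Of the 4 cells with Selp in replicate 1, 3 also had Vwf, 2 had Vcam1 and 0 had Gpihbp1, although 89 of 109 cells of that library had Gpihbp1. The cell with Selp in replicate 2 had both Vwf and Gpihbp1.

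All Selp UMIs lay in sub-cluster 4, which held 12 and 37 cells and was led by Kirrel3, Chrm2, Apoe, Tmsb10, Nr2f2 and Lrg1. Lrg1, a secreted protein of venules, had 555 CPM in sub-cluster 4, against 84.2 CPM in the other endothelial cells, and Nr2f2 had 361 CPM, against 136 CPM. Neither was particular to it, since the 8 cells of sub-cluster 9 had 616 CPM of Lrg1 and 1071 CPM of Nr2f2. The 5 cells with Selp held 160 of the 269 Lrg1 UMIs of sub-cluster 4, and its other 44 cells had 279 CPM. Ephb4, another venous gene, had 86.6 CPM in sub-cluster 4, against 87.0 CPM. Chrm2, a muscarinic receptor, had 249.6 CPM, against 25.4 CPM. UMIs of at least 2 of 8 venous markers were found in 77.6% of its cells. Esm1, a tip cell marker, had 26.8 CPM in sub-cluster 4, against 534 CPM. Aqp1, the water channel on the capillary list, had 93.4% and 83.0% of its UMIs in sub-cluster 4, but 51 of 122 UMIs of replicate 1 and 67 of 100 of replicate 2 came from 1 cell each. Sub-clusters were made from these genes, so the values describe them and are not tested.

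**Figure D3:**
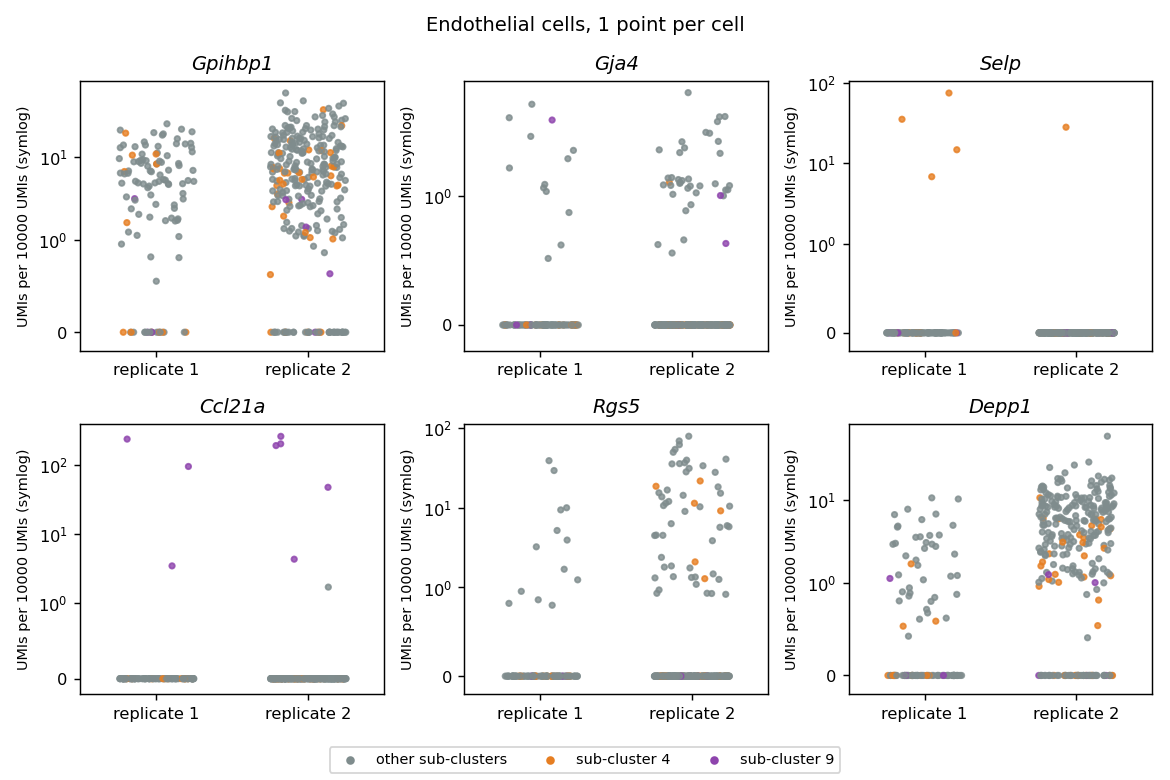
UMIs of 6 genes in each of the 109 and 280 endothelial cells, scaled to the UMIs of the cell on a symmetric log axis, with 1 point per cell, orange for sub-cluster 4 and purple for sub-cluster 9. Gpihbp1 was found in 81.7% and 85.4% of cells, while Selp was in 4 and 1 cells, all of sub-cluster 4, and Ccl21a was in 3 and 6 cells, all but 1 of sub-cluster 9.

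Arterial genes were called higher in 8 of 9 tested cases, against 20.3% of all tested genes, with a median of 4.76. Efnb2, an arterial ligand of Ephb4, had 214 and 151 CPM in endothelial cells, against 9.22 and 4.07 CPM. Gja4, a connexin of arteries, had 34 and 65 UMIs in 13 and 39 endothelial cells, and Gja5, another one, had 0 and 0 UMIs. Fbln5, an elastic fibre gene, was lower, with 11.2 and 9.43 CPM in endothelial cells, against 93.9 and 87.4 CPM in collagen-rich cells. Its sign turned against Ptprc-positive cells, which had 0.639 and 0.254 CPM.

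Sub-cluster 5, with 19 and 24 cells, was led by Cxcl12, Dnm3, Mecom and Clu. It had 104 CPM of Gja4, against 18.2 CPM in the other endothelial cells, 85.9 CPM of Sema3g, against 6.08 CPM, and 44.1 CPM of Hey1, against 9.45 CPM. UMIs of at least 2 of 10 arterial markers were found in 81.4% of its cells. Of these markers, Stmn2, Bmx and Fbln5 were higher in sub-cluster 9, and the others were not. They had 643, 120 and 120 CPM in sub-cluster 9, against 88.2, 23.2 and 51.1 CPM in sub-cluster 5. Sub-cluster 9 held 54% and 44.7% of the endothelial Stmn2 UMIs of replicates 1 and 2. Nr2f2, the venous factor, had 51.1 CPM in sub-cluster 5, against 186 CPM.

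Most endothelial cells carried capillary markers in each sub-cluster except sub-cluster 9, where 50% of cells did. UMIs of at least 2 of 6 capillary markers were found in 97.2% of endothelial cells of replicate 1 (92.2 to 99.4%) and 96.1% of replicate 2 (93.1 to 98.0%). The shares for arterial markers were 64.2% and 48.6% and those for venous markers 44.0% and 33.2%. Depth moved these shares. With cells thinned to 3000 UMIs, which 105 and 270 cells reached, the arterial share was 32.4% and 13.3% and the venous share 16.2% and 16.7%, while the capillary share was 88.6% and 92.6%. A share of this kind is no count of arteries or veins, and its difference between the libraries was not tested.

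**Figure D4:**
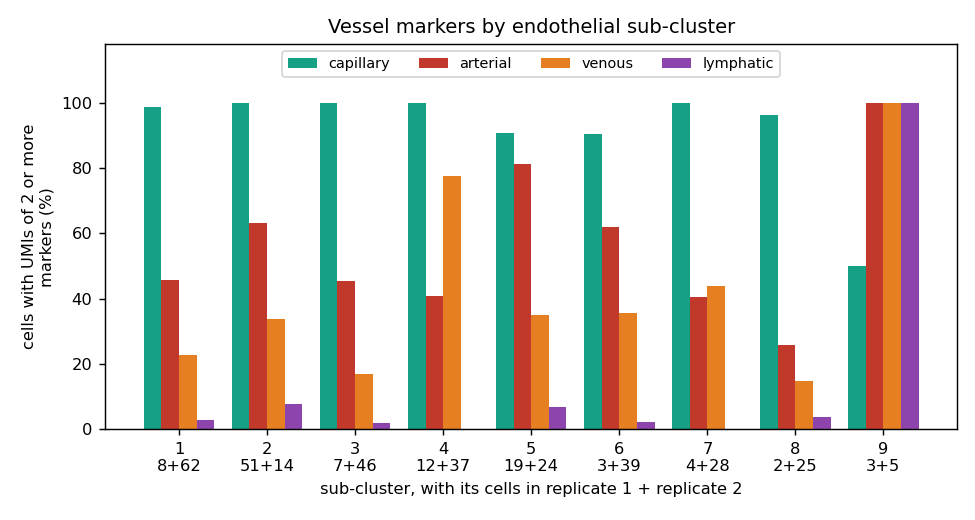
Share of cells in percent with UMIs of at least 2 capillary, arterial, venous or lymphatic markers in the 9 sub-clusters of endothelial cells. Arterial markers reached 81.4% in sub-cluster 5, venous markers 77.6% in sub-cluster 4, and lymphatic markers 100% in sub-cluster 9, whose 8 cells also had at least 2 arterial and 2 venous markers each.

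The remaining sub-clusters had other leading genes. Sub-cluster 1, with 8 and 62 cells, was led by Gpihbp1, which had 1705 CPM there, against 646 CPM in the other endothelial cells. Apln, a tip cell ligand, had 78.6 CPM there, against 2.49 CPM, and UMIs in 14.3% of its cells, against 1.25% of the others. Sub-cluster 3, with 7 and 46 cells, was led by Igfbp3, Btnl9, Fabp4 and Car4. Car4, a carbonic anhydrase of the capillary surface, had 216 CPM there, against 33.9 CPM in the others. Sub-clusters 2, 7 and 8 were led by early response genes such as Egr1, Junb, Ier3 and Fos. Such genes were also among the leading ones of sub-cluster 1, with 4575 CPM of Egr1, against 3733 CPM in the others. Atf3 had 860 CPM in sub-cluster 1, against 499 CPM. Sub-cluster 2 held 51 of 109 cells of replicate 1 and 14 of 280 of replicate 2. The libraries were clustered together without correction, and sub-cluster values pool them. In uneven sub-clusters, a library difference and a cell state therefore cannot be told apart.

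Early response genes are known to respond to tissue dissociation. Over all endothelial cells, 3 of 18 dissociation genes were higher than in other Pth-low cells, against 20.3% of all tested genes. Another 3 were lower, against 27.8% of all, and 12 were not called, with a median of 0.14. Ier3 was among the higher ones, with 929.8 and 793 CPM in endothelial cells, against 296 and 252 CPM, and Egr1 was not called, with 4023 and 3803 CPM, against 3158 and 3619 CPM. Fosb was lower, with 419 and 304 CPM in endothelial cells, against 913 and 1118 CPM.

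Most sprouting genes were called higher in endothelial cells, and genes of cell division went both ways. Of 13 tip cell and angiogenesis genes, 9 were higher (median 3.11), against 20.3% of all tested genes. Esm1 had 457 and 464 CPM in endothelial cells, against 6.11 and 1.13 CPM, and a UMI in 54.1% and 59.6% of endothelial cells. Aplnr, the receptor of Apln, had 40.3 and 65.1 CPM in endothelial cells, against 0.120 and 0.603 CPM. Cxcr4, Adm and Nid2 were lower and Kcne3 was not called. Of 10 tested cell cycle genes, 3 were higher and 4 lower (median -1.01). Over all tested genes the shares were 20.3% and 27.8%, and 10 genes are few to tell apart from these. Mki67, a marker of dividing cells, had 5.15 and 1.35 CPM in endothelial cells, against 27.5 and 58.7 CPM in Ptprc-positive cells. UMIs of at least 2 of 6 cycling markers were found in 0 of 109 endothelial cells, which allows up to 3.33%, and in 0 of 280, which allows up to 1.31% (exact intervals). These limits are on cells with such UMIs, and not on cells that express the genes or divide. Ccnd1 was higher, with 142 and 183 CPM in endothelial cells, against 38.1 and 43.4 CPM in other Pth-low cells, but it was not called against Ptprc-positive cells alone (94.8 and 128 CPM).

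Endothelial cells of the 2 pools had similar levels for most genes. Of 3758 genes with at least 50 CPM in either library, 3673 (97.7%) lay within 2-fold of each other. The largest ratios toward replicate 1 were those of Sele, Selp, Vcam1, Mctp1 and Il31ra. Selp had 264 and 20.2 CPM and Vcam1 69.5 and 7.18 CPM in endothelial cells of replicates 1 and 2, and both rested on few cells. Il31ra, a cytokine receptor, had 152 and 27.4 CPM in endothelial cells of replicates 1 and 2, and it was also uneven in other Pth-low cells (98.3 and 23.9 CPM) and Pth-high cells (48.5 and 14.6 CPM).

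The largest ratios toward replicate 2 were those of Depp1, Rgs5, Zeb2, Abcc9 and Lin7a. Depp1, a gene induced by FOXO factors, had 114 CPM in replicate 1 (95% exact Poisson interval 95.5 to 135) and 563 CPM in replicate 2 (532 to 595), with UMIs in 40.4% and 78.9% of endothelial cells. In other Pth-low cells it had 0.599 and 2.19 CPM. With 1 library a side the difference was not tested against the spread between pools, and the age and chimerism of the pools cannot be told apart from it.

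Pericyte markers were also uneven between the libraries. Rgs5 and Abcc9 are pericyte markers themselves, and UMIs of at least 3 of 8 such markers were found in 3 and 16 endothelial cells. Zeb2 and Lin7a are not on that list. Lin7a had 7.72 and 68.2 CPM over all endothelial cells of replicates 1 and 2, and 6.26 and 3.42 CPM without those cells. Zeb2 had 11.2 and 65.1 CPM over all endothelial cells and 1.79 and 9.76 CPM without them, and so was still higher in replicate 2. Rgs5 had 122 and 374 CPM over all and 31.3 and 123 CPM without them, a larger ratio between the libraries than before, although Rgs5 and Abcc9 helped to choose the cells left out and had to fall. Abcc9 had 11.2 and 51.2 CPM and 1.79 and 3.42 CPM. Depp1 was little changed, with 113 and 539 CPM without them. In replicate 2, 14 of the 56 cells with Rgs5 also had Higd1b, another pericyte gene. Sub-cluster 6, with 3 and 39 cells, had 1451 CPM of Rgs5, against 151 CPM in the other endothelial cells, and 2167 CPM of Plvap, against 2647 CPM. Its cells of replicate 2 with only 3 of the rule's genes had 42 and 22 UMIs of Rgs5, and 1 and 0 UMIs of Plvap. Scrublet predicted 0 endothelial doublets in each library. Whether these barcodes hold more than 1 cell, or are pericytes, was not tested further.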

How the data were processed

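The authors deposited raw UMI counts, made with Cell Ranger 7.0.0 on mm10, per the submitters' processing notes. The sources used here do not say how cells were called among barcodes. Per the labels' protocols, tissue was dissociated with papain, a collagenase and trypsin and flow cytometry removed doublets. No doublet was removed here. The members, gene lists, markers and tests were chosen with earlier results of these data known.

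Counts of 32287 entries were summed per library over endothelial and over other Pth-low barcodes. edgeR 4.0.16 (R 4.3.3, TMM, filterByExpr) tested the 4 sums with library as a block, because both sums of a library share their mice, which left 1 residual degree of freedom, with calls at an adjusted p of 0.05. Replicates were separate pools of mice. The 27 genes used by the rule stayed in the fit and were not called. Genes can pass the filter through their higher side alone. In counts simulated for 13845 genes, 76.3% of 97 genes changed by 1 on the log2 scale and 99.0% of 103 changed by 2 were called, as were 8 of 13645 unchanged ones. The simulation gave every gene the same dispersion and changed few genes, whereas 48.1% were called in the data. It checks that the fit runs as intended, and its shares do not carry over to these data.

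Genes were named by rule: the 12 highest and 8 lowest log2 fold changes among called genes of at least 20 CPM on the higher side, for each list up to 4 of its called members, by p, and 1 that was not called, any member of the vessel type, VEGF and transcription factor lists, the 5 strongest ratios each way between libraries, and leading genes of sub-clusters. Other members were named after their values were seen. A few genes that the rule names are not reported here. Clustering used scanpy 1.11.5 (2000 variable genes, 20 components, 15 neighbours, Leiden resolution 1) on both libraries together, with no correction between them. Shares have exact Clopper-Pearson intervals at 95%. Gene coordinates are those of GENCODE vM21. Alternatives were DESeq2 1.42.0, other scalings, limits and filters, thinned cells, other cells to compare with, and each library left out.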

Additional observations from a re-analysis of the deposited data

How the results depend on the processing

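The counts of 2817 genes called higher and 3868 lower stayed within 1.5 times under other size factors, no count filter, other limits of the rule, predicted doublets left out and other cells to compare with. The genes themselves changed more, and of 2826 called higher than in Ptprc-positive cells alone, 1925 were among the 2817. List medians depended on the cells compared. Against collagen-rich cells alone, 17 of 20 moved by at least the SD of the 2 library medians. Against Ptprc-positive cells alone 14 moved, against the log2 mean of both classes 10, and with thinned cells 7. The DESeq2 test called 1424 higher and 1899 lower, and with cells thinned to 3000 UMIs 1877 of 10224 tested genes were higher. The library block pairs sums of the same mice; without the replicate block, 2188 were higher and 3304 lower. Of 143 genes followed, 126 were called; Abcb1a, Nr2f2 and Tfpi lost the call without the block, and 12 lost it with DESeq2, these and Angpt2, Apln, Casr, Lyl1, Lyve1, Mki67, Vegfb, Vegfc and Vwf. Thinning ended the calls of Nr2f2, Tfpi and Vegfc, and a Pth limit of 0.5% that of Casr. Leaving out a library leaves no residual degrees of freedom and so no count of calls, and the endothelial share then ranged from 19.1 to 26.6%.

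The signs of called genes turned with the cells compared, and that of Lyve1 (-5.79) without cells with lymphatic markers. Another setting averaged the log2 levels of collagen-rich and Ptprc-positive cells, a mean that a class near 0 pulls far down. A turned sign there need not mean more CPM than in the plain average of the 2 classes. Against this log2 mean, the log2 fold change of Fbln5 was 0.41, of Nid1 1.25, of Nid2 0.12, of Abcb1a 0.078, of Adm 0.40, of Cd36 1.61, of Cxcr4 0.44, of Nr2f2 2.15, of Tfpi 0.13 and of Vegfc 1.29, and 8 other genes lost their calls. Against Ptprc-positive cells alone, it was 4.20 for Fbln5, 5.37 for Nid1, 2.63 for Nid2, 1.55 for Abcb1a, 1.07 for Bmp4, 3.37 for Adm, -0.018 for B2m, 5.51 for Nr2f2, 2.55 for Plat, 1.61 for Tfpi, 0.76 for Vegfa, 0.036 for Vegfb and 4.26 for Vegfc, and 4 others lost their calls. Against collagen-rich cells alone, it was 6.62 for Cd36 and 4.53 for Cxcr4, and 3 others lost their calls. The mean share of cells with arterial markers was 88.5% with at least 1 marker, 24.6% with 3 and 22.9% thinned, that with venous markers 76.9%, 14% and 16.4%, and that with lymphatic markers 60.8%, 2.27% and 2.35%. There were 5 sub-clusters at a resolution of 0.5 and 13 at 1.5. Leaving out cells with lymphatic or pericyte markers was chosen after seeing the data.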

Other observations

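Gfp, an entry of the gene list whose meaning the labels do not give, was uneven among endothelial cells. It had a UMI in 80.7% and 78.6% of them, against 99.9% and 99.4% of Pth-high cells. At least 500 CPM, a limit set after the values were seen, was reached by 53.2% of endothelial cells in replicate 1 (95% exact interval 43.4 to 62.8%) and 56.4% in replicate 2 (50.4 to 62.3%). The shares were 33.0% and 38.3% of collagen-rich cells, 55.1% and 59.7% of Ptprc-positive cells and 98.3% and 89.3% of Pth-high cells. The median over endothelial cells was 621 and 867 CPM, with lower quartiles of 82.3 and 113 CPM and upper quartiles of 2103 and 2897 CPM. For tdTomato, which reports Pth, the shares at that limit were 1.83% and 3.21% of endothelial cells, against 99.4% and 99.8% of Pth-high cells.

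Abundant endothelial genes outside the lists included several signalling and metabolic genes, called higher by edgeR. Plpp1, a lipid phosphatase, had 2002 and 2616 CPM in endothelial cells, against 37.8 and 41.6 CPM in other Pth-low cells. Timp3, an inhibitor of matrix proteases, had 2626 and 3703 CPM in endothelial cells, against 157 and 201 CPM, and Cd200, a ligand that restrains myeloid cells, had 1176 and 985 CPM, against 15.5 and 11.2 CPM. Rbp7, a retinol-binding protein, had 483 and 1205 CPM in endothelial cells, against 2.16 and 10.4 CPM. Penk, an opioid precursor, was among the leading genes of sub-clusters 5, 6 and 8, with 881 CPM in sub-cluster 6, against 235 CPM in the other endothelial cells.

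Some barcodes had at least 3 of the rule's 6 genes and were kept out by their Ptprc UMIs. They were 3 in replicate 1, with 29 to 72 Ptprc UMIs and a median of 38979 UMIs in all, and 9 in replicate 2, with 2 to 11 Ptprc UMIs and a median of 19575. The genes of the rule, by which they were chosen, summed to 7188 and 6990 CPM in them, 62.5 and 28.7 CPM in other Ptprc-positive cells and 12777 and 13614 CPM in endothelial cells. Their macrophage markers summed to 1549.5 and 4611 CPM, against 17.2 and 10.3 CPM in endothelial cells. Whether they hold more than 1 cell was not tested beyond the Scrublet run.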
